A study of Homo sapiens with 8 samples.

Results

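Myosin II is the motor that pulls on actin filaments in contracting, dividing and crawling cells. Its 10 genes described here were MYL6, MYL7, MYL9, MYL12A, MYL12B, MYH9, MYH10, MYH11, MYH14 and MYLK, out of 22428 named genes on the array. They were taken by symbol, as the chains of the nonmuscle and smooth muscle motor and the kinase of its light chain. The choice was made with earlier results of these data known. MYL7 was chosen by its lower level with simvastatin than with L-778123 in KURAMOCHI cells. Its KURAMOCHI values are therefore given as a description and were not tested. The genes had 16 probes, of which 15 were detected in at least 1 group, and each gene took its brightest probe. Detected means that the scanner software had marked the probe as well above background, on 2 of 2 arrays where a group is meant.

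A myosin II motor holds a pair of heavy chains, each with an essential and a regulatory light chain on its neck. Phosphorylation of the regulatory light chain, by the kinase that MYLK encodes and by the ROCK kinases, switches the motor on, and the myosin phosphatase switches it off.

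The study measured RNA of OVSAHO and KURAMOCHI cells, ovarian cancer cell lines in common use as models of high-grade serous carcinoma, after culture with simvastatin or with L-778123. Simvastatin blocks HMG-CoA reductase, the entry enzyme of the mevalonate pathway, and L-778123 blocks protein farnesyl and geranylgeranyl transferase, the enzymes that attach lipids made by that pathway to proteins. The comparison asked which genes the statin regulates apart from the block of prenylation that both drugs share. Each of the 4 groups had 2 arrays, each line is a single established line, and untreated cells were not analysed here. A difference between the drugs therefore does not show which of them moved a gene. Below, rose and fell mean only a higher or lower level with simvastatin than with L-778123. Drug doses and culture times are not given in the sources used here.

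Over the 8 arrays, between 30122 and 33438 of 58162 probes were detected and 0 spots were saturated. The 2 arrays of a group correlated at 0.9949 to 0.9958. All 8 markers of serous ovarian carcinoma, among them PAX8 and WT1, were detected in every group. The 8 arrays shared 1 slide, where each group had positions of its own, and a position effect cannot be told apart from a group effect. The labels do not say that the 2 arrays of a group came from separate cultures, so p-values measure the spread between arrays, which may be technical. Levels below are log2 signals relative to the 75th percentile of the array, 0 being that percentile. They are not comparable between genes, and in bulk RNA fewer cells with a transcript and less of it per cell cannot be told apart.

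The promoters of MYL7 and MYLK are shown because, of the 8 members with a promoter in the RefSeq table, these were the ones with a CArG box, the element that serum response factor binds in actin and muscle genes. Each line gives the 250 bases before the listed start on GRCh38.p14, 5′ to 3′ on the minus strand, with the CArG box in capitals.
MYL7, chr7:44141333-44141582: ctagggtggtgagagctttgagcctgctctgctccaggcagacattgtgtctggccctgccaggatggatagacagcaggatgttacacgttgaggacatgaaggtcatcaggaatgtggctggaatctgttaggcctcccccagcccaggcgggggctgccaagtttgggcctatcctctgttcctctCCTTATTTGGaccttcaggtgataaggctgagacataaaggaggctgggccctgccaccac
MYLK, chr3:123620549-123620798: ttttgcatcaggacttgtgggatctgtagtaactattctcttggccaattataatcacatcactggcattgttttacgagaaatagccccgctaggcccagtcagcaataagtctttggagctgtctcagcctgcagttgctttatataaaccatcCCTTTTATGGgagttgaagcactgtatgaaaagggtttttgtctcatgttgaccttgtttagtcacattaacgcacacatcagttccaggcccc
The box begins 61 bases before the start of MYL7 and 94 bases before that of MYLK. The listed MYLK start lies inside the gene near its 3′ end, where the short product telokin, which holds the end of the protein without the kinase, begins. A CArG box, searched on both strands in the 250 bases before and 50 after a start, was present in 454 of 35116 promoters, or 1.29%. The motif CATTCC, which TEAD factors bind, was searched on both strands in the same windows and does not overlap the box in either promoter. It was present in 5 of the 8 members, MYL7, MYL12A, MYH9, MYH10 and MYLK, and in 14% of all promoters. These matches describe letters in a window and not bound sites.

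MYL9, the regulatory light chain typical of smooth muscle and fibroblasts (chromosome 20, 36541519 to 36551447), was lower with simvastatin than with L-778123 in both lines. Its level was 0.42 and 0.42 on the OVSAHO arrays with simvastatin and 2.45 and 2.46 on those with L-778123. In KURAMOCHI it was 4.89 and 4.91 with simvastatin and 6.80 and 6.79 with L-778123. The 4 groups stood apart, with KURAMOCHI L-778123 the highest and OVSAHO simvastatin the lowest. The log2 difference was -2.04 (SE 0.0497, 4.11-fold lower, limma adjusted p = 1.92e-05) in OVSAHO and -1.89 (SE 0.0497, 3.71-fold lower, adjusted p = 8.21e-05) in KURAMOCHI. These 2 effects differed by -0.15 on the log2 scale, with a 95% interval of -0.32 to 0.03 and an adjusted p of 0.195. MYL9 was called lower in both drug comparisons under all 21 alternative settings.

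MYL12A and MYL12B encode the regulatory light chains of most nonmuscle cells and lie side by side on chromosome 18, at 3247482 to 3256237 and 3262133 to 3278461. Their sequences are nearly identical, so a probe may read some of the other's RNA. MYL12A was at 5.73 and 5.80 in OVSAHO with simvastatin, 5.65 and 5.61 in OVSAHO with L-778123, 5.82 and 5.75 in KURAMOCHI with simvastatin and 6.79 and 6.73 in KURAMOCHI with L-778123. The KURAMOCHI arrays with L-778123 were above all others, and OVSAHO and KURAMOCHI with simvastatin overlapped. In KURAMOCHI MYL12A fell by 0.98 on the log2 scale (SE 0.0614, adjusted p = 0.000411), a 1.97-fold difference just short of the 2-fold threshold that a call required here. In OVSAHO the log2 difference was 0.14 (adjusted p = 0.12).

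MYL12B was at 6.69 and 6.79 in OVSAHO with simvastatin, 6.67 and 6.73 in OVSAHO with L-778123, 6.37 and 6.35 in KURAMOCHI with simvastatin and 6.79 and 6.71 in KURAMOCHI with L-778123. The KURAMOCHI arrays with simvastatin were the lowest, and the other 3 groups overlapped. The log2 difference between the drugs was -0.39 in KURAMOCHI (adjusted p = 0.00838) and 0.05 in OVSAHO (adjusted p = 0.589). A dimmer MYL12B probe gave -0.65 in KURAMOCHI (adjusted p = 0.000844).

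**Figure D1:**
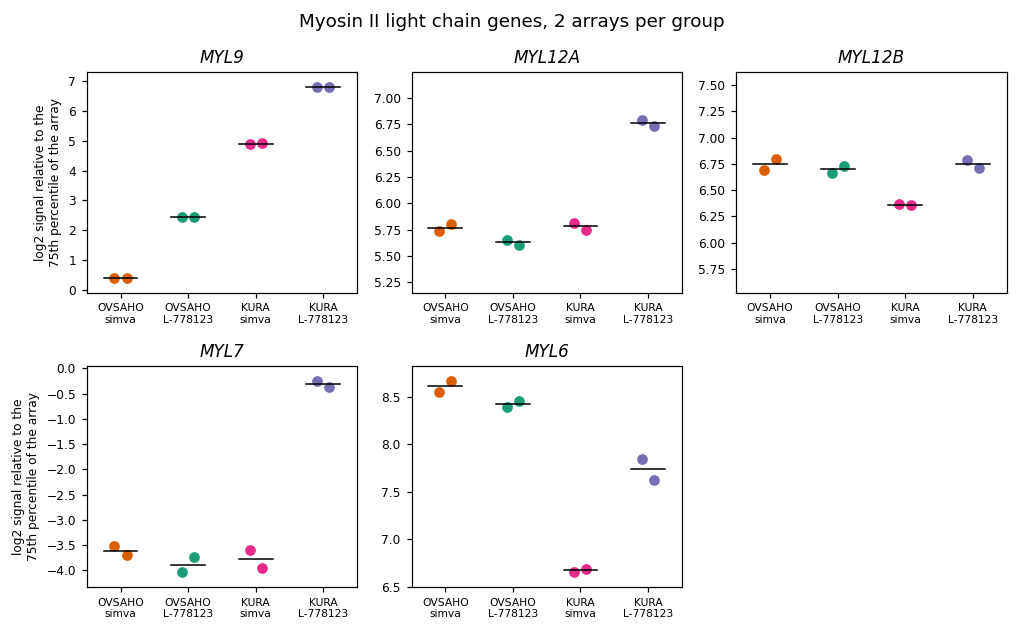
Log2 signal relative to the 75th percentile of the array for the 5 light chain genes, each point 1 array, bars the group means, with KURA standing for KURAMOCHI and simva for simvastatin. MYL9 separated all 4 groups, MYL7 and MYL12A were highest on both KURAMOCHI arrays with L-778123, and MYL6 was lowest on both KURAMOCHI arrays with simvastatin.

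MYL7, the regulatory light chain of the atrial heart muscle (chromosome 7, 44138864 to 44141332, minus strand), was at -3.52 and -3.70 in OVSAHO with simvastatin and at -4.04 and -3.74 with L-778123. It was at -3.61 and -3.96 in KURAMOCHI with simvastatin and at -0.25 and -0.37 with L-778123. It was detected on all 8 arrays, though 3 groups lay near the limit of detection. Their means were 0.65 to 1.03 on the log2 scale above the dimmest probe detected, against 4.22 for KURAMOCHI with L-778123. The KURAMOCHI value that chose the gene was a log2 difference of -3.48, or 11.1-fold lower with simvastatin. It was -1.93 with a model-based background correction. In OVSAHO, which did not choose it, the log2 difference was 0.28 (SE 0.159, 95% interval -0.12 to 0.67, adjusted p = 0.198).

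MYL6, the essential light chain of nonmuscle and smooth muscle myosin (chromosome 12, 56158359 to 56161579), was at 8.55 and 8.67 in OVSAHO with simvastatin, 8.40 and 8.46 in OVSAHO with L-778123, 6.65 and 6.69 in KURAMOCHI with simvastatin and 7.85 and 7.63 in KURAMOCHI with L-778123. The 4 groups stood apart and the order of the lines was the reverse of that for MYL9. In KURAMOCHI it fell by 1.07 on the log2 scale (SE 0.0907, 2.09-fold, adjusted p = 0.000969). Without the first KURAMOCHI array with L-778123 the log2 difference was -0.96, under the 2-fold threshold. In OVSAHO the log2 difference was 0.18 (95% interval -0.04 to 0.41, adjusted p = 0.147).

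MYH9, the heavy chain of nonmuscle myosin IIA (chromosome 22, 36281280 to 36387967), was at 4.84 and 4.91 in OVSAHO with simvastatin, 5.04 and 5.07 in OVSAHO with L-778123, 5.20 and 5.01 in KURAMOCHI with simvastatin and 6.02 and 6.07 in KURAMOCHI with L-778123. The KURAMOCHI arrays with L-778123 were the highest, as for MYL12A, and KURAMOCHI with simvastatin overlapped OVSAHO with L-778123. In KURAMOCHI MYH9 fell by 0.94 on the log2 scale (SE 0.078, 1.92-fold, adjusted p = 0.000887). In OVSAHO the log2 difference was -0.18 (adjusted p = 0.108), and a second, dimmer probe gave 0.24 there (adjusted p = 0.115) and -0.85 in KURAMOCHI (adjusted p = 0.00337).

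MYH10, the heavy chain of nonmuscle myosin IIB (chromosome 17, 8474212 to 8630725), was at 0.94 and 1.07 in OVSAHO with simvastatin, 1.74 and 1.83 in OVSAHO with L-778123, 2.58 and 2.58 in KURAMOCHI with simvastatin and 3.78 and 3.75 in KURAMOCHI with L-778123. Its groups stood apart in the same order as those of MYL9. It fell in both lines, by 0.78 on the log2 scale in OVSAHO (SE 0.0696, 1.72-fold, adjusted p = 0.000502) and by 1.18 in KURAMOCHI (SE 0.0696, 2.27-fold, adjusted p = 0.000342), where it passed the 2-fold threshold.

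MYH14, the heavy chain of nonmuscle myosin IIC (chromosome 19, 50203622 to 50310540), was at 2.14 and 2.26 in OVSAHO with simvastatin, 1.96 and 2.28 in OVSAHO with L-778123, 2.00 and 1.92 in KURAMOCHI with simvastatin and 1.92 and 1.88 in KURAMOCHI with L-778123. The drug groups of OVSAHO overlapped and those of KURAMOCHI did not. The log2 difference was 0.08 in OVSAHO (95% interval -0.20 to 0.37, adjusted p = 0.575) and 0.07 in KURAMOCHI (interval -0.22 to 0.35, adjusted p = 0.7), so that a 2-fold difference lay outside both intervals. The sign was not stable, since a dimmer probe gave -0.13 and -0.31.

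MYH11, the heavy chain of smooth muscle myosin (chromosome 16, 15703135 to 15857028), was detected on both KURAMOCHI arrays with L-778123 and on no other array. It was at -4.09 and -4.17 there, at -4.40 and -5.30 in KURAMOCHI with simvastatin, at -4.76 and -5.45 in OVSAHO with simvastatin and at -5.24 and -5.23 in OVSAHO with L-778123. The bound this gave was a level at least 1.19-fold higher in KURAMOCHI with L-778123 than with simvastatin, and it was not tested. The log2 difference without the bound was -0.72 in KURAMOCHI (95% interval -1.56 to 0.12, limma adjusted p = 0.161). A second MYH11 probe was detected on no array.

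**Figure D2:**
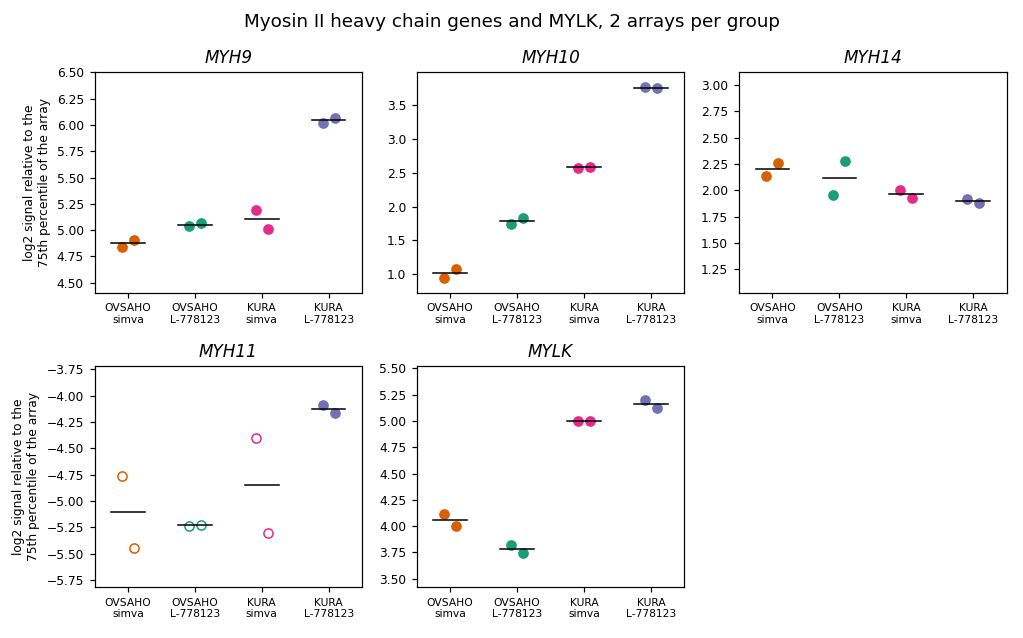
Log2 signal relative to the 75th percentile of the array for the 4 heavy chain genes and MYLK, each point 1 array (open where the probe was not detected), bars the group means, with KURA standing for KURAMOCHI and simva for simvastatin. MYH10 separated all 4 groups, MYH9 was highest on both KURAMOCHI arrays with L-778123, and MYH11 was detected on those arrays alone.

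MYLK, the calmodulin-dependent kinase that phosphorylates the regulatory light chain (chromosome 3, 123610049 to 123884332, minus strand), was at 4.11 and 4.0 in OVSAHO with simvastatin, 3.82 and 3.75 in OVSAHO with L-778123, 5.0 and 5.0 in KURAMOCHI with simvastatin and 5.20 and 5.13 in KURAMOCHI with L-778123. The groups stood apart, with the lines further from each other than the drugs. In OVSAHO MYLK rose by 0.27 on the log2 scale (SE 0.0676, adjusted p = 0.0204), though not without the first simvastatin array (adjusted p = 0.0944) or the second L-778123 array (adjusted p = 0.0841). In KURAMOCHI the log2 difference was -0.16 (adjusted p = 0.125). The other 2 MYLK probes gave 0.66 (adjusted p = 0.000491) and 0.28 (adjusted p = 0.0231) in OVSAHO and 0.24 (adjusted p = 0.0294) and -0.05 (adjusted p = 0.669) in KURAMOCHI. The exons these probes lie in were not given, so the long kinase and telokin could not be told apart.

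In KURAMOCHI, where 9 members were tested, 3 were called lower with simvastatin (MYL9, MYL6 and MYH10) and 0 higher, by the rule of an adjusted p below 0.05 and at least a 2-fold change. Over all 16955 genes tested 2.95% were called lower and 2.44% higher. At any fold 6 of the 9 were lower, with MYL12A, MYL12B and MYH9 added, and 0 higher, where 18.4% of all genes were lower and 17% higher. The median log2 difference of the 10 members was -0.96, against 0.01 for all genes. The median includes MYL7, which was chosen for its difference here. The other members were also chosen with earlier results of these data known, so these counts are a description.

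In OVSAHO 1 of 10 members, MYL9, was called lower and 0 higher, where 5.89% of all genes were called lower and 5.69% higher. At any fold MYL9 and MYH10 were lower and MYLK higher, 2 and 1 of 10, where 27.5% of all genes were lower and 26.4% higher. The median log2 difference of the members was 0.11, against 0.01 for all genes. The share of members called in OVSAHO was thus close to that of all genes.

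**Figure D3:**
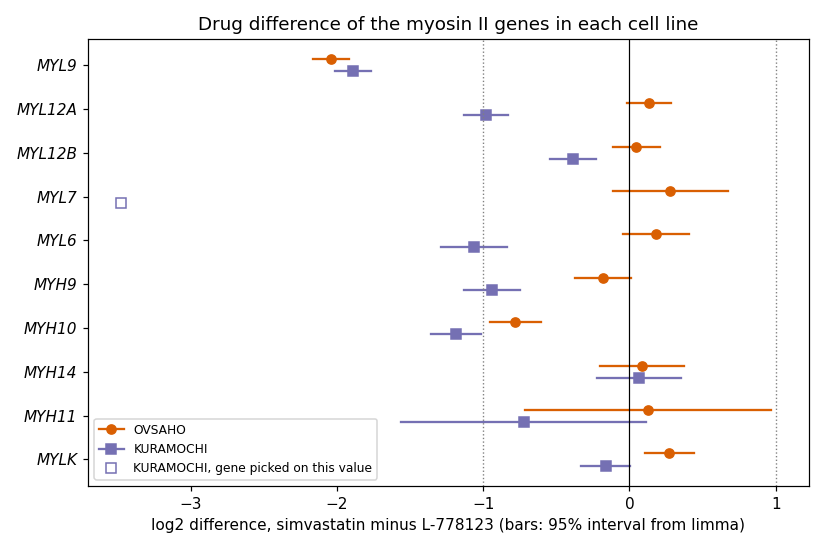
Log2 difference, simvastatin minus L-778123, of the 10 genes in each line, with 95% intervals from limma over 8 arrays and dotted lines at a 2-fold difference. MYL9 was beyond the dotted line in both lines, MYL6 and MYH10 in KURAMOCHI, and the open square marks MYL7 in KURAMOCHI, which was not tested.

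The drug effect differed between the lines for 6 of the 9 members tested, and for each of them the difference was higher in OVSAHO than in KURAMOCHI. It passed 2-fold for MYL6, at 1.25 on the log2 scale (SE 0.128, adjusted p = 0.00267), and for MYL12A, at 1.12 (adjusted p = 0.00117). It was 0.76 for MYH9 (adjusted p = 0.00755), 0.43 for MYL12B (adjusted p = 0.0237), 0.43 for MYLK (adjusted p = 0.0271) and 0.40 for MYH10 (adjusted p = 0.0361). Over all genes 4.29% were called higher in OVSAHO and 3.3% lower by this difference with the 2-fold threshold, beside 2 and 0 of 9 members. At any fold 13.5% were higher and 14% lower, beside 6 and 0 of 9. The values for MYL12B, MYLK and MYH10 lost significance without some of the arrays, with adjusted p up to 0.0735, 0.0823 and 0.0991. The tests of the difference use the same arrays as the comparisons within each line.

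Averaged over both drugs, the lines differed in all 9 members tested, with 3 higher in OVSAHO and 6 lower at any fold, where 42.4% of all genes were higher and 40.5% lower. For 3 of the 9 this was lost with an array left out, with adjusted p up to 0.111 for MYH11, 0.116 for MYH14 and 0.0541 for MYL12B. MYH11, counted among the 6 lower, was not detected in OVSAHO. Its probe was kept only through KURAMOCHI with L-778123, so its lower level in OVSAHO was partly fixed by the filter. MYL9 was 21.3-fold lower in OVSAHO than in KURAMOCHI (log2 difference -4.41, SE 0.0351, adjusted p = 4.46e-08). MYH10 was 3.43-fold lower (log2 difference -1.78, adjusted p = 8.53e-07) and MYLK 2.24-fold lower (log2 difference -1.16, adjusted p = 3.66e-06). MYL6 was higher in OVSAHO by 1.31 on the log2 scale (adjusted p = 7.26e-06), though by 0.97 with quantile normalization and in the authors' table, under the 2-fold threshold. With these, 3 of 9 members were called lower and 1 higher, where 16.4% of all genes were lower and 18.3% higher. MYL12B, higher in OVSAHO by 0.17 (adjusted p = 0.0165), was lower there by quantile normalization, in the authors' table and by the median of its probes. MYL7, not tested here, had a log2 difference of -1.70 between the lines.

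The regulators of the motor were a list of 40 genes, of which 39 had a probe and 36 were tested. In OVSAHO 3 were called higher with simvastatin and 0 lower, where 5.69% and 5.89% of all genes were called. RHOC, a small GTPase that activates the ROCK kinases, was at 5.49 and 5.51 with simvastatin and 3.96 and 3.95 with L-778123 in OVSAHO, and rose by 1.54 on the log2 scale (SE 0.0617, 2.92-fold, adjusted p = 4.48e-05). In KURAMOCHI it was at 4.02 and 4.11 with simvastatin and 4.25 and 4.16 with L-778123, a log2 difference of -0.14 (adjusted p = 0.138). The OVSAHO arrays with simvastatin were above all others, and those with L-778123 were below all others.

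ARHGEF2, an exchange factor that activates RHOA, was at 1.86 and 1.88 in OVSAHO with simvastatin and 0.40 and 0.61 with L-778123, a rise of 1.37 on the log2 scale (2.58-fold, adjusted p = 0.000148). In KURAMOCHI it rose by 0.59 (adjusted p = 0.00529), from 1.48 and 1.54 with L-778123 to 2.06 and 2.14 with simvastatin. PPP1R14C, an inhibitor of myosin phosphatase, was at -1.48 and -1.38 in OVSAHO with simvastatin and -3.29 and -4.04 with L-778123, a rise of 2.24 (SE 0.237, 4.71-fold, adjusted p = 0.000915). With a model-based background correction the rise was 1.14. In KURAMOCHI it was between -3.36 and -3.02 on all 4 arrays. These were the genes called in OVSAHO.

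In KURAMOCHI 3 regulators were called lower with simvastatin and 0 higher, where 2.95% and 2.44% of all genes were called. RND3, a small GTPase that counteracts RHOA and ROCK1, was at 2.37 and 2.40 with simvastatin and 4.15 and 4.14 with L-778123, and fell by 1.76 on the log2 scale (3.4-fold, adjusted p = 0.000106). It was also lower in OVSAHO, at 1.48 and 1.47 against 2.45 and 2.40, where it fell by 0.95 (adjusted p = 9.96e-05). RND3 was 1 of 2 regulators with a CArG box in the promoter window, with ROCK2, of 33 with a window.

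PPP1R12B, a targeting subunit of myosin phosphatase found in muscle, was at 3.53 and 3.55 in KURAMOCHI with simvastatin and 4.99 and 5.02 with L-778123, and fell by 1.46 on the log2 scale (2.76-fold, adjusted p = 0.000264). By the median of its 4 probes the log2 difference was -0.82, under the 2-fold threshold. STK17A, a kinase of the death-associated family, was at -3.61 and -3.41 with simvastatin and -2.78 and -2.21 with L-778123, a fall of 1.01 (adjusted p = 0.013) that kept its call under 14 of the 21 alternatives. Without the second L-778123 array it was -0.73, and with a model-based background correction -0.48.

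**Figure D4:**
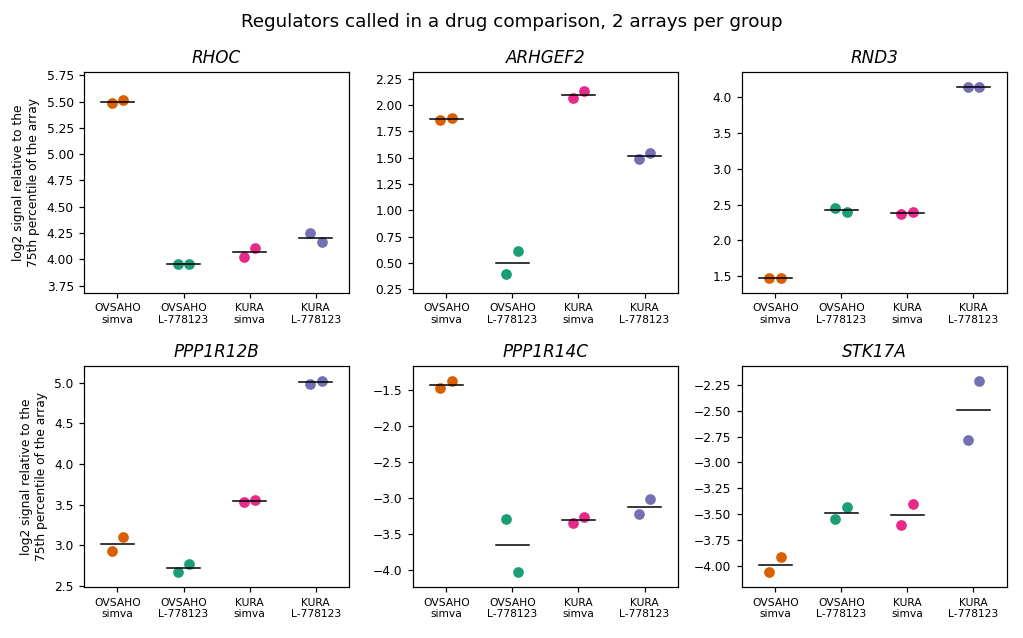
Log2 signal relative to the 75th percentile of the array for the 6 regulators called in a drug comparison, each point 1 array, bars the group means, with KURA standing for KURAMOCHI and simva for simvastatin. RHOC and PPP1R14C were high on both OVSAHO arrays with simvastatin, and RND3, PPP1R12B and STK17A on both KURAMOCHI arrays with L-778123.

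At any fold 17 of the 36 regulators were higher and 7 lower in OVSAHO, and 2 higher and 12 lower in KURAMOCHI. Of all genes, 26.4% were higher and 27.5% lower in OVSAHO at any fold, and 17% and 18.4% in KURAMOCHI. The medians of the regulators' log2 differences were 0.12 and -0.14, against 0.01 for all genes in each line. RHOA and ROCK1 did not pass the 2-fold threshold and are named after their values were seen, as the switch and the kinase at the head of the pathway. RHOA was at 5.35 and 5.36 in OVSAHO with simvastatin and 4.46 and 4.52 with L-778123, and rose by 0.86 on the log2 scale (adjusted p = 0.000208). In KURAMOCHI its log2 difference was -0.12 (adjusted p = 0.177). ROCK1 rose by 0.32 in OVSAHO (adjusted p = 0.0107), though not without the second simvastatin array (adjusted p = 0.0536), and its log2 difference in KURAMOCHI was 0.19 (adjusted p = 0.0762). ROCK2, the other ROCK kinase, had log2 differences of -0.0091 in OVSAHO (adjusted p = 0.905) and -0.05 in KURAMOCHI (adjusted p = 0.535).

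Of the 18 other myosin II chains, those of skeletal and heart muscle for the most part, 6 were detected in at least 1 group. In OVSAHO 1 of the 6 was called lower and 0 higher, where 5.89% and 5.69% of all genes were called. In KURAMOCHI 2 were called lower and 0 higher, where 2.95% and 2.44% were called. At any fold 2 were higher and 2 lower in each line. Of all genes, 26.4% were higher and 27.5% lower in OVSAHO at any fold, and 17% and 18.4% in KURAMOCHI. MYL2, the regulatory light chain of the heart ventricle and of slow muscle, was called lower in both lines. It was at -1.07 and -1.20 in KURAMOCHI with simvastatin and 0.81 and 0.56 with L-778123, a log2 difference of -1.82 (SE 0.334, adjusted p = 0.0114). In OVSAHO it was at -4.17 and -5.12 with simvastatin, where it was detected on 1 of 2 arrays, and -3.77 and -3.26 with L-778123, a log2 difference of -1.13 (adjusted p = 0.0356). MYL11, the regulatory light chain of fast skeletal muscle, was at -3.82 and -4.20 in KURAMOCHI with simvastatin and -2.66 and -2.92 with L-778123, a log2 difference of -1.22 (adjusted p = 0.0118). Both KURAMOCHI calls were lost without the second simvastatin array, with values of -1.76 and -1.03, and without the first L-778123 array, with values of -1.70 and -1.09. The OVSAHO call was lost without 7 of the 8 arrays in turn. With a model-based background correction the log2 differences were -0.18 for MYL2 in OVSAHO and -0.43 for MYL11 in KURAMOCHI.

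Among 6 smooth muscle markers with a probe, MYOCD, the coactivator that defines the lineage, was detected on no array. ACTG2, LMOD1, CNN1 and SYNPO2 were called lower with simvastatin in KURAMOCHI, with log2 differences of -5.93, -2.66, -1.90 and -1.89. DES was not called there, at 0.19. In OVSAHO LMOD1 and CNN1 were called higher, at 2.58 and 1.11, and ACTG2 lower, at -2.73. The signals of the 6 markers summed to between 2.75 and 6.90 times the 75th percentile on the arrays of 3 groups. On the KURAMOCHI arrays with L-778123 they summed to 197 and 175.5 times. ACTG2 alone made up 191.6 and 170.1 of these, and without it the KURAMOCHI sums were 5.41 and 5.35 with L-778123 and 3.82 and 3.75 with simvastatin. Of 7 fibroblast markers COL1A1 and COL3A1 were detected, in KURAMOCHI alone, and were not called between the drugs. Of 7 heart muscle markers TNNT2, TNNI3 and NKX2-5 were detected, and TNNT2 was called lower with simvastatin in both lines. Its log2 differences were -1.86 in OVSAHO and -1.30 in KURAMOCHI. TNNT2 was detected on neither OVSAHO array with simvastatin, which bounds its level with L-778123 there at 2.69-fold higher or more. TNNI3 and NKX2-5 were not called, with log2 differences of 0.07 and 0.51 in OVSAHO and 0.24 and 0.22 in KURAMOCHI, of which that of NKX2-5 in OVSAHO had an adjusted p of 0.0151. The part of other cell types in the levels of MYL9 and MYL7 was not tested.

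Over the 8 arrays, the genes whose levels ran most like those of MYL9, by Pearson's correlation of the log2 signal over 16954 other genes, were FSTL1 (0.9994), CEMIP2 (0.9993) and PSMD1 (0.9988). For MYL7 they were GSTA5 (0.9914), MYL12A (0.9903) and TNMD (0.9886), and for MYLK they were OTOA (0.9988), C5 (0.9985) and DGKQ (0.9976). The 8 points share 1 slide, 2 lines and 2 drugs. For MYL7 the KURAMOCHI arrays with L-778123 lie far from the other 6. They are among the values that chose the gene, so its correlations are only a description.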

How the data were processed

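RNA was measured on 8 1-color SurePrint G3 Human Gene Expression arrays, 2 per group. The authors extracted the scans with Feature Extraction 11.5.1.1 and deposited, for each spot, an intensity corrected for background within the array and not normalized between arrays. They also deposited a table of normalized intensity, used as an alternative. Groups followed the labels.

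Outlier and control spots were left out, spots of a probe averaged, and the log2 intensity scaled to the 75th percentile of its array. Probes flagged well above background on 2 of 2 arrays in any group were kept, 33753 of 58162. Symbols came from RefSeq accessions (24782 of 50096 identifiers), and loci and promoters from RefSeq on GRCh38.p14, later than the build of the array design. Depth has no count on arrays, where the number of arrays limits the precision.

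limma 3.58.1 in R 4.3.3 fitted 1 mean per group over 8 arrays, with Benjamini-Hochberg adjustment over all kept probes. A call needed an adjusted p under 0.05 and at least a 2-fold change, the thresholds of the methods. The interaction contrast tested the difference between the lines. On simulated data with 33753 probes for OVSAHO simvastatin against L-778123, 87% of 200 probes changed by 2 on the log2 scale were recovered, with 1 false call. Smaller changes, near the 2-fold threshold as for several calls here, were not simulated. Where a group was not above background, its level was bounded by the lowest signal well above background. Motifs were searched in Python 3.11.15 and figures drawn with matplotlib 3.10.9.

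The members and lists were chosen with earlier results of these data known. Named are the 10 members, regulators and other chains called in a drug comparison, and the 3 genes most like MYL7, MYL9 and MYLK. The alternatives were no filter and a filter on all arrays, normexp with an offset of 50 (on the median spot intensity), a floor, quantile normalization, the authors' table, the percentile over bright probes, a block for the replicate number, the compared groups alone, the methods' own test (analysis of variance over both factors, then Tukey's), other fold thresholds, the median over probes, and each array left out. Same-numbered arrays did not deviate together (correlations 0.0026 and 0.0008), and the main model treated them as unpaired. This does not exclude that they were cultured or handled together.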

Additional observations from a re-analysis of the deposited data

Results flagged for a closer look

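The effect of simvastatin against L-778123 differed between the lines, by limma's interaction contrast, for 6 members. The difference, OVSAHO minus KURAMOCHI on the log2 scale, was 1.25 for MYL6, 1.12 for MYL12A, 0.43 for MYL12B, 0.76 for MYH9, 0.40 for MYH10 and 0.43 for MYLK. With each array left out the adjusted p stayed at or under 0.0146 for MYL6, 0.00751 for MYL12A and 0.0305 for MYH9.

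Of the 36 regulators tested 12 had a higher difference in OVSAHO and 3 a lower one (NET1, CDC42BPG and CALM3), where 13.5% and 14% of all genes did. Among them are 6 of the regulators named, which were picked as called in 1 line or, for RHOA, after its values were seen. The difference was 1.76 for PPP1R12B (adjusted p = 0.000641), 2.42 for PPP1R14C (adjusted p = 0.00662, and 1.18 with normexp), 1.69 for RHOC (adjusted p = 0.000419), 0.98 for RHOA (adjusted p = 0.00153), 0.82 for RND3 (adjusted p = 0.00178) and 0.78 for ARHGEF2 (adjusted p = 0.00918). Groups of 2 arrays were too small to be tested for single outlying arrays.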

How the results depend on the processing

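The counts of called genes kept within 1.5 times their value in 288 recomputations and not in 44. With no fold threshold, members higher and lower were 1 and 2 in OVSAHO, 0 and 6 in KURAMOCHI, 6 and 0 for the difference between the lines and 3 and 6 between the lines, regulators were 17 and 7 in OVSAHO and 2 and 12 in KURAMOCHI, and other chains were 2 and 2 in each line. With a threshold of 1.5, members lower were 2 in OVSAHO, 5 in KURAMOCHI and 5 between the lines, regulators were 6 and 6 in OVSAHO and 2 and 6 in KURAMOCHI, and other chains lower in OVSAHO were 2. With quantile normalization and in the authors' table, 0 members were called higher in OVSAHO than in KURAMOCHI. With the median over probes, 1 regulator, NET1, was called lower in OVSAHO. Other chains called lower in OVSAHO were 0 with no filter, the filter on all arrays (where MYL2 and MYL11 were not tested), normexp, the compared groups alone and the two-way analysis of variance, and in KURAMOCHI 0 with the filter on all arrays and the analysis of variance and 1 with normexp. Leaving out each array gave 2 to 5 members lower in KURAMOCHI (5 without the first simvastatin array, 2 without the first L-778123 array), 0 to 1 regulators lower in OVSAHO, 0 to 1 other chains lower in OVSAHO and 0 to 2 in KURAMOCHI.

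Of the single values 9 changed sign under some setting, in 18 recomputations, and no called value did. With an array left out, MYL12B in OVSAHO ranged from -0.0037 to 0.0954, MYH11 in OVSAHO from -0.22 to 0.47, MYH14 in OVSAHO from -0.0737 to 0.24, its difference between the lines from -0.14 to 0.18, and MYL11 in OVSAHO from -0.39 to 0.20. MYL12B between the lines was -0.0805 with quantile normalization, -0.0823 in the authors' table and -0.0294 with the median over probes. The median over probes gave 0.0297 for MYH9 and -0.0205 for MYH14 in OVSAHO and -0.12 for MYH14 in KURAMOCHI. The MYH14 difference between the lines was -0.0105 with quantile normalization and -0.0103 in the authors' table. Normexp gave 0.0564 for STK17A and 0.17 for MYL11 in OVSAHO. The causes were not tested.

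With the replicate number as a block, 3 members remained called lower in KURAMOCHI (MYL9, MYL6 and MYH10) and 1 in OVSAHO, and no count of calls changed by over 1.5 times. The labels do not say whether same-numbered arrays belong together.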
